A study of Mus musculus with 57 samples.

Results

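Prefrontal cortex from heterozygous Shank3 delta C mice (HT) given fluoxetine was compared with prefrontal cortex from wild-type mice (WT) given vehicle, which measures how far the drug-treated mutant lay from the untreated wild type. The compared libraries were the 10 labelled HT, fluoxetine (5 females and 5 males) and the 10 labelled WT, vehicle (5 females and 5 males), 20 of the 56 libraries analysed. All mice were on the C57BL/6J strain. The drug reached the pups through the mother's milk from day 3 to day 24 after birth, for 3 weeks, and cortex was taken on day 25. The 2 groups therefore differ in genotype and in drug, and in this contrast alone those factors cannot be told apart. The other arms used here for values beside the comparison were HT given vehicle (5 females, 3 males) and WT given fluoxetine (5 females, 5 males). The labels name neither the dose nor the litters, and they do not say which stretch of Shank3 the delta C allele removes. Animals were treated as independent samples. The main p-values and SEs rest on a spread per gene estimated over mice of all 12 groups in the fit. They do not measure the spread of the 20 compared mice alone. Because the drug came through the mother, pups of the same litter would share the mother's treatment. If littermates are among the compared mice, they are not independent and the p-values may be too small. Differences between litters could then also be counted as differences between the groups. The part of litter was not tested.

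Shank3 encodes a scaffold protein of the excitatory postsynaptic density that links glutamate receptors to Homer, Dlgap proteins and the actin cytoskeleton, and loss of a copy is a known cause of a human neurodevelopmental disorder with autism. Fluoxetine blocks the serotonin transporter and so raises serotonin outside cells. Cells keep their sterol supply steady through the SREBP transcription factors: when sterols are plentiful in the endoplasmic reticulum, Insig proteins hold the SREBP escort there and the genes of cholesterol synthesis are transcribed less. The developing brain makes its own cholesterol, much of it for myelin.

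Values are normalised read counts per gene. The 20 compared libraries held 24560951 to 35916099 reads over the listed genes, and no library went against its labelled sex. The cortical markers were present in both groups. Summed normalised counts of 18 deep-layer neuron markers ran from 24396 to 29463 in HT fluoxetine and from 22958 to 29173 in WT vehicle, and those of 16 astrocyte markers from 170860 to 217060 and from 162843 to 193959. Tissue content did vary. The summed count of 5 olfactory bulb markers ran from 311 to 8997 (median 1512) in HT fluoxetine and from 360 to 8023 (median 4193) in WT vehicle, with no marker at 0 in any library. With the olfactory level in the fit, all 58 genes that passed below still passed, among 266. Without the 3 compared libraries highest in olfactory markers 61 passed, 40 of them among the 58. In bulk tissue, fewer cells of a type and less RNA per cell cannot be told apart.

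The targeted gene was measured at similar levels in both groups. In HT fluoxetine, Shank3 (ENSMUSG00000022623; GRCm38 chr15:89499623-89560261, plus strand) had 6796, 8468, 8014, 7682 and 7909 normalised counts in the females and 8080, 8755, 8252, 8736 and 6531 in the males. In WT vehicle it had 7392, 6022, 7659, 6294 and 7181 in the females and 7832, 8404, 8496, 7573 and 7705 in the males. The groups overlapped throughout, and the log2 difference was 0.09 ± 0.08 (SE; limma adjusted p = 0.709). A gene-level count does not check the genotype labels, because the labels leave the extent of the allele unnamed. Slc6a4, the serotonin transporter gene, was not analysed here.

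Across 18026 tested genes, 58 passed at an adjusted p below 0.05 (limma, Benjamini-Hochberg), which is 0.322% of them. Of these, 40 (0.222%) were higher and 18 (0.0999%) lower in HT fluoxetine. The differences were small: 37 of the 40 higher genes differed by less than 0.5 on the log2 scale, and the median difference was 0.22 for the higher and -0.30 for the lower genes, against -0.0015 over all tested genes. Without adjustment, 2167 genes (12%) had p below 0.05. By edgeR on recovered reads 63 passed, 57 of them among the 58. All 58 kept their direction within each sex taken alone and under every setting tried. They were chosen on the average of the sexes in these same mice, so that agreement partly follows from the choice. The number that passed depended on single mice. It fell to 15 without WT vehicle female 3, to 18 without HT fluoxetine female 5 or WT vehicle male 4, and to 19 without HT fluoxetine male 3. It was 23 without WT vehicle male 5, 28 without WT vehicle male 3, 32 without HT fluoxetine male 2 and 35 without HT fluoxetine male 4, and it rose to 77 without HT fluoxetine male 1. The 7 named genes that passed under all 12 other settings and with each of the 20 libraries left out in turn were the higher genes Ahdc1, Ccdc6, Igsf9b, Mtmr4 and Sgsm1 and the lower genes AW047730 and Stard4.

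**Figure D1:**
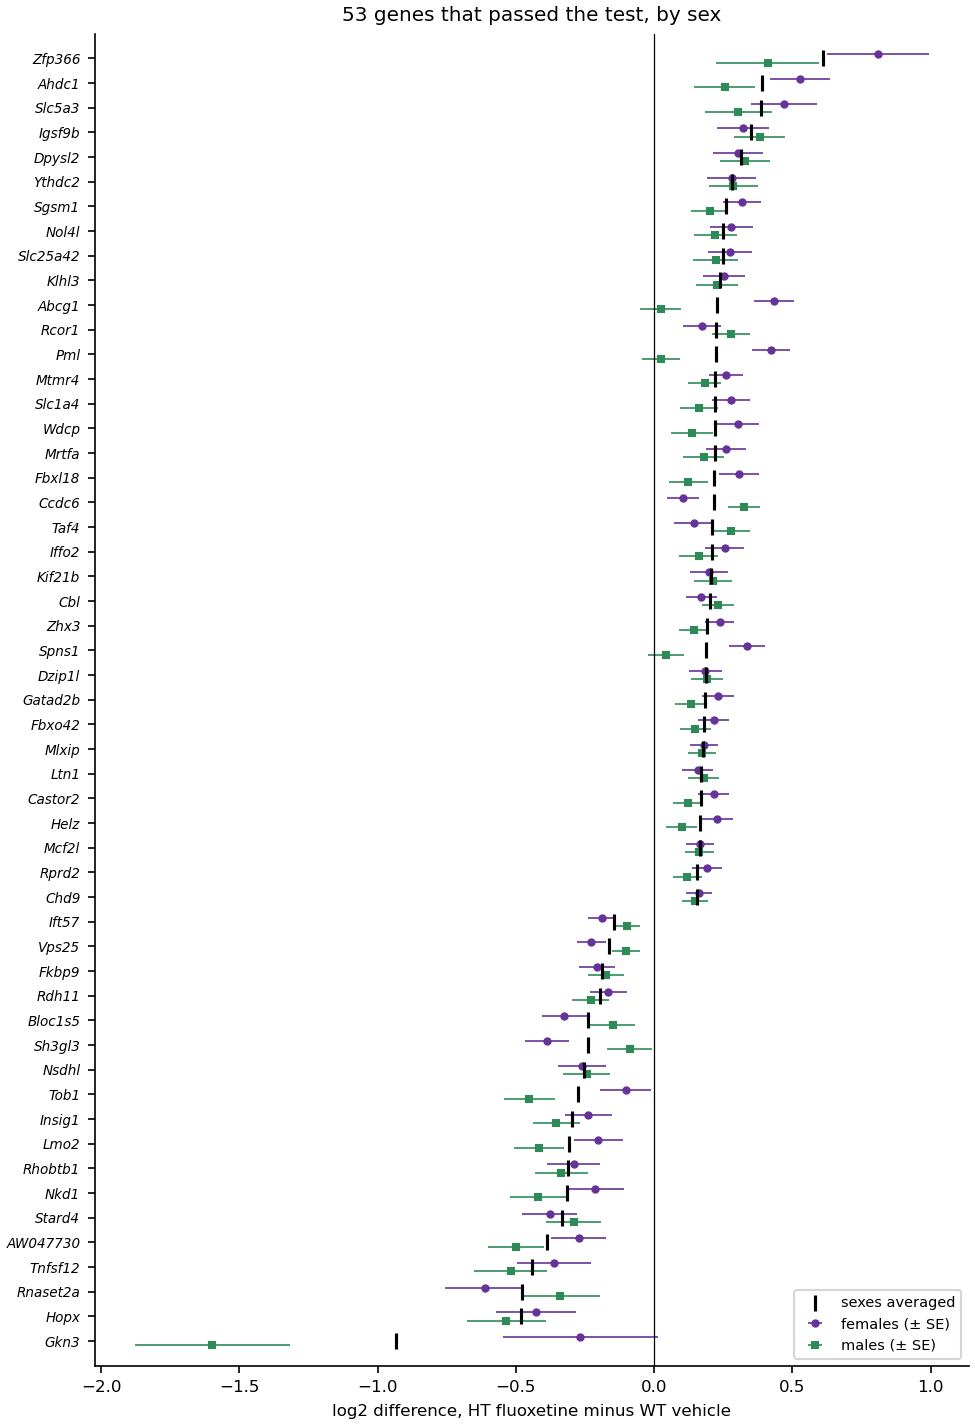
Log2 difference (HT fluoxetine minus WT vehicle, x axis) of the 53 named genes that passed with the sexes averaged, in females (circles) and males (squares), each ± SE from the limma fit, with the average as a black tick. Every gene lies on the same side of 0 in both sexes, while Gkn3, Abcg1 and Pml sit far apart between the sexes.

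Of all tested genes, 6 (0.0333%) had no overlap between the 10 HT fluoxetine and the 10 WT vehicle libraries, 5 of them among the 58. Igsf9b, an immunoglobulin-family adhesion molecule of inhibitory synapses (chr9:27299204-27357546, plus strand), had 4325, 4099, 4093, 4021 and 4863 normalised counts in HT fluoxetine females and 4349, 4371, 4447, 4125 and 3766 in males. In WT vehicle it had 3724, 3506, 3322, 3410 and 3159 in females and 3489, 3513, 3139, 2992 and 3041 in males. The lowest treated mutant, HT fluoxetine male 5, was therefore just above the highest untreated wild type. The rise was 1.28-fold, a log2 difference of 0.35 ± 0.07 (SE from the fit of all groups, with n = 10 and 10 compared; limma adjusted p = 0.0139). With the trends of each library with GC content and transcript length removed, the Igsf9b difference was 0.25 (adjusted p = 0.0496), and with the olfactory covariate added to that correction 0.20 (0.0272).

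Mtmr4, a phosphatase of the myotubularin family that removes phosphate from an endosomal membrane lipid (chr11:87592162-87616302, plus strand), separated more evenly. Its counts were 2997, 2954, 3264, 3223 and 3351 in HT fluoxetine females and 2960, 2940, 3148, 3067 and 2854 in males. In WT vehicle they were 2707, 2634, 2550, 2584 and 2700 in females and 2681, 2784, 2611, 2525 and 2587 in males. Every treated mutant exceeded every untreated wild type, and the rise was 1.17-fold, log2 0.22 ± 0.04 (SE; limma adjusted p = 0.0139).

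Cbl, a ubiquitin ligase that marks activated receptor tyrosine kinases for degradation (chr9:44142976-44234049, minus strand), was the most even of these genes in treated males. It had 2655, 2592, 2809, 2813 and 2757 in HT fluoxetine females and 2749, 2755, 2807, 2807 and 2817 in males. WT vehicle females had 2478, 2431, 2376, 2477 and 2339 and males 2465, 2330, 2211, 2434 and 2441. The groups did not overlap in either sex, and the log2 difference was 0.20 ± 0.04 (SE; limma adjusted p = 0.0151). After removal of the trends with GC content and length its adjusted p was 0.06.

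Klhl3, a substrate adaptor of a cullin ubiquitin ligase that acts on WNK kinases (chr13:58000228-58113592, minus strand), ran from 2346 to 2849 over the 10 HT fluoxetine libraries and from 1988 to 2339 over the 10 WT vehicle libraries. The margin between the groups was narrow. The log2 difference was 0.24 ± 0.05 (SE; limma adjusted p = 0.0238), and the gene passed with 13 of the 20 libraries left out in turn, with adjusted p-values from 0.0216 to 0.075. Tjp1, which encodes the tight junction protein ZO-1, also had no overlap (3049 to 3404 against 2594 to 3036) but missed the threshold in the fit of all groups (log2 0.18, limma adjusted p = 0.0563). It passed with only the compared groups in the fit (0.035), with array weights (0.00662), with the olfactory covariate (0.0229) and with GC, length and olfactory corrections together (0.0421). Tjp1 passed with 2 of the 20 libraries left out in turn (limma adjusted p 0.0381 to 0.128). The only lower gene with no overlap was Tnfsf12, the TNF-family cytokine TWEAK. It had 121.1, 111.6, 110.3, 108.3 and 117.6 in HT fluoxetine females and 85.5, 86.5, 112.4, 97.5 and 110.4 in males, against 135.0, 129.4, 177.8, 129.9 and 166.8 in WT vehicle females and 139.2, 156.6, 155.9, 127.1 and 127.1 in males. Its log2 difference was -0.44 ± 0.09 (SE; limma adjusted p = 0.0196), or -0.41 with an adjusted p of 0.0593 without WT vehicle female 3. It shares sequence with the overlapping gene Tnfsfm13 on the same strand, so its counts are uncertain.

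**Figure D2:**
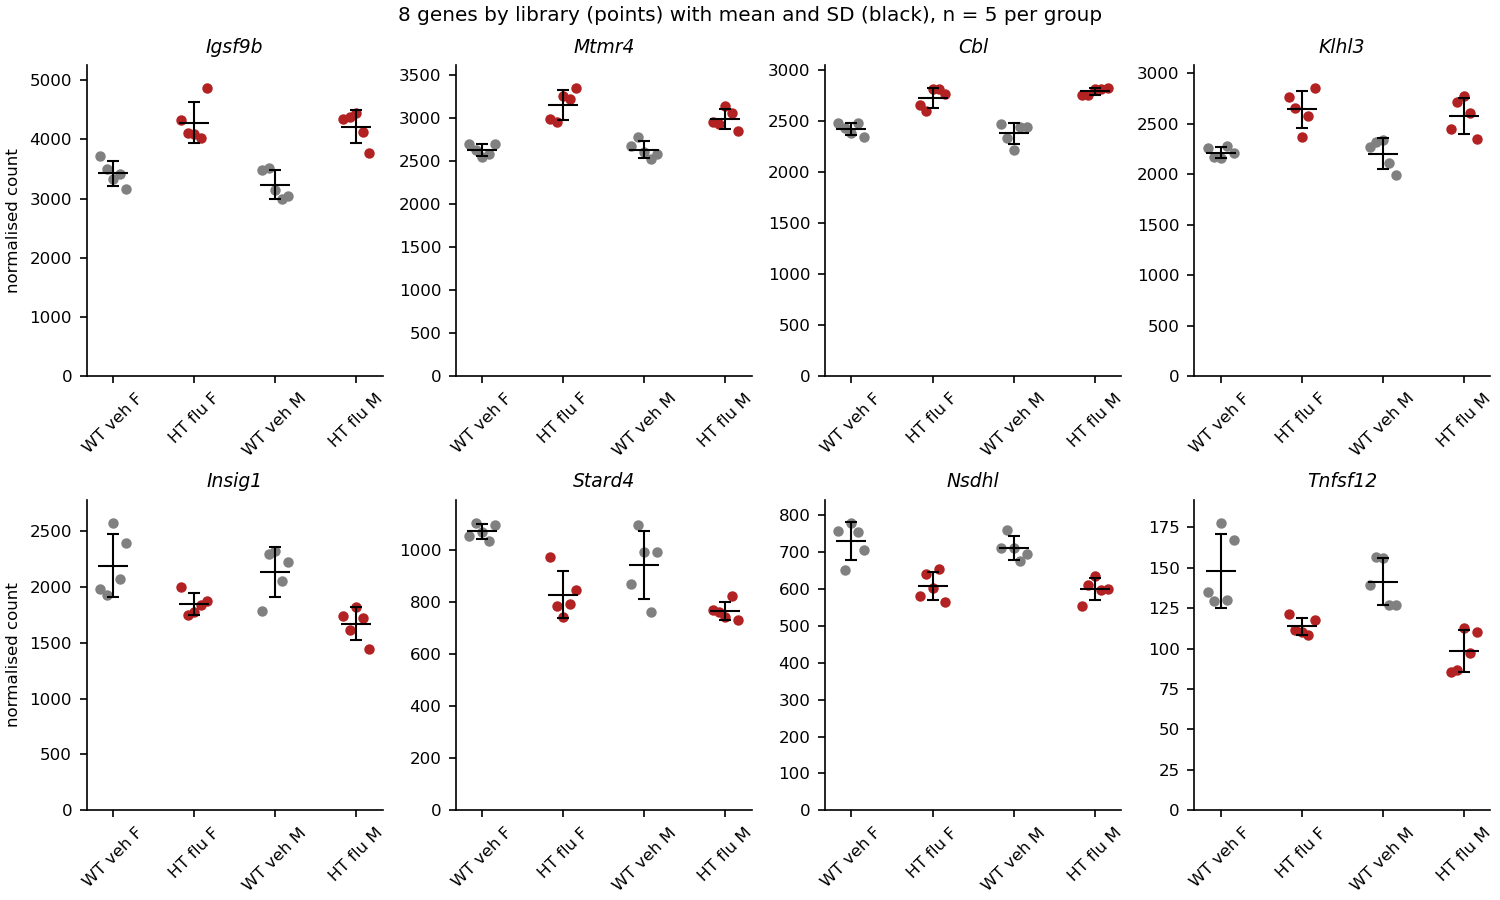
Normalised counts (y axis, from 0) of 8 genes in each library of the 4 compared groups (n = 5 each; F, female; M, male), with the group mean and SD in black. The upper 4 genes are higher in every HT fluoxetine library than in any WT vehicle library, Tnfsf12 is lower in every one, and Insig1, Stard4 and Nsdhl are lower with some overlap between the groups.

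The other genes with large rises had more varied roles and wider overlap. Zfp366, a zinc-finger transcriptional corepressor, had the largest rise of a named gene (0.61 ± 0.13 on the log2 scale, limma adjusted p = 0.0214), with 206 to 558 normalised counts against 154 to 400. Ahdc1, an AT-hook DNA-binding protein, rose by 0.39 ± 0.08 (limma adjusted p = 0.0151). It had 2127, 1772, 2027, 1861 and 2408 in HT fluoxetine females and 1621, 1908, 2176, 2103 and 1633 in males, against 1545, 1290, 1255, 1368 and 1606 and 1805, 1593, 1590, 1510 and 1385 in WT vehicle. In 7 of the 10 treated mutants Ahdc1 was above every untreated wild type. Slc5a3, the sodium-coupled transporter that brings myo-inositol into cells, was higher by 0.39 ± 0.09 (limma adjusted p = 0.022), and its annotated span overlaps Mrps6 on the same strand, so reads of the pair are hard to separate. Dpysl2, which encodes the axon growth protein CRMP2, rose by 0.32 ± 0.06 (limma adjusted p = 0.0151), with 3311 to 5836 against 3036 to 3951. HT fluoxetine female 1 held the top value and HT fluoxetine male 5 the lowest of the treated mutants.

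Smaller rises had small errors. Sgsm1, a regulator of Rab GTPases, had 3556, 3405, 3196, 3406 and 3774 in HT fluoxetine females and 3371, 3248, 3407, 3596 and 3260 in males. WT vehicle had 3094, 3088, 2451, 2710 and 2606 in females and 3516, 3049, 2731, 2742 and 2723 in males, so a single untreated male reached into the treated range. Its log2 difference was 0.26 ± 0.05 (limma adjusted p = 0.0139). Ccdc6, a coiled-coil protein of the DNA damage response, rose by 0.21 ± 0.04 (adjusted p = 0.0139), Mlxip, which encodes the glucose-sensing transcription factor MondoA, by 0.18 ± 0.04 (adjusted p = 0.0151), and Zhx3, a zinc-finger and homeobox repressor, by 0.19 ± 0.04 (adjusted p = 0.0151), all by limma. Slc25a42, a carrier of coenzyme A into mitochondria, and Nol4l each rose by 0.25 ± 0.06. Ythdc2, an RNA helicase that binds methylated adenosine, rose by 0.28 ± 0.06 and had an adjusted p of 0.102 without the 3 compared libraries highest in olfactory markers.

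The lower genes included 3 of the sterol pathway. Insig1, the endoplasmic reticulum protein that retains the SREBP escort, had 2000, 1745, 1771, 1839 and 1870 normalised counts in HT fluoxetine females and 1738, 1615, 1822, 1722 and 1441 in males. In WT vehicle it had 1982, 1922, 2574, 2066 and 2394 in females and 1783, 2295, 2320, 2051 and 2223 in males. In 6 of 10 treated mutants Insig1 was below every untreated wild type. It fell by 0.30 on the log2 scale (SE 0.06, limma adjusted p = 0.0152), and by 0.27 with an adjusted p of 0.0528 without WT vehicle female 3, its highest library.

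Stard4, which carries cholesterol between membranes, had 975, 785, 744, 793 and 848 in HT fluoxetine females and 769, 761, 741, 823 and 732 in males. WT vehicle had 1055, 1105, 1070, 1036 and 1096 in females and 868, 1095, 994, 762 and 994 in males. The females did not overlap, and WT vehicle males 1 and 4 reached into the treated range. The log2 difference was -0.33 ± 0.07 (SE; limma adjusted p = 0.0196).

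Nsdhl, an enzyme of the demethylation steps late in cholesterol synthesis, had 582, 640, 602, 653 and 566 in HT fluoxetine females and 553, 611, 636, 597 and 601 in males, against 757, 651, 780, 755 and 705 in WT vehicle females and 711, 761, 711, 675 and 694 in males. Only HT fluoxetine female 4 and WT vehicle female 2 crossed. Its difference was -0.25 ± 0.06 (SE; limma adjusted p = 0.0468), close to the threshold: it passed with 3 of the 20 libraries left out in turn (adjusted p 0.0398 to 0.115), and it had an adjusted p of 0.128 after the GC and length correction.

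Promoters of this pathway are shown because 3 of its genes fell and its members are known to share control by SREBP and the CCAAT-binding factor NF-Y. Of the 2 sequences below, from RefSeq on GRCm38.p6, each runs 5′ to 3′ from 250 bases before the annotated start to 50 after it, and capitals mark CCAAT and CACGTG on either strand (ATTGG is CCAAT read on the other strand). Stard4 is named only.
Insig1 (chr5:28071162-28071461, plus strand): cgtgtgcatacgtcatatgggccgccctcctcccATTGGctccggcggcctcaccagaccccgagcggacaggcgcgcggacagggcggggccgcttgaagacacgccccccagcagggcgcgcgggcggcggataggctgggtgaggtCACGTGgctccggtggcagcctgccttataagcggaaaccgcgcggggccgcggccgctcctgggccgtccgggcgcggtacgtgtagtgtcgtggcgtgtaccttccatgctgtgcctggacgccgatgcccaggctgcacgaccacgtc
Nsdhl (chrX:72918271-72918570, plus strand): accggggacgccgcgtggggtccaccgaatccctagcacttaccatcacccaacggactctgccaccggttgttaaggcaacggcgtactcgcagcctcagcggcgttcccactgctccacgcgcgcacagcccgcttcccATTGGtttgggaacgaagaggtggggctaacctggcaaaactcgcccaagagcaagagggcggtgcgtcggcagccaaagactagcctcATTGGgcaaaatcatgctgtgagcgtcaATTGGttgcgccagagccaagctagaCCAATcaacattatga

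The Insig1 window held 1 CCAAT match and 1 CACGTG match, and the Nsdhl window 4 CCAAT matches. Of the 25 tested cholesterol genes, 17 had a RefSeq window in the table. A gene with several windows was counted once if any of them held the motif. By that count 16 of the 17 (94.1%) held CCAAT, against 41.1% of all 27025 genes with a window (37.4% of 32851 single windows). A window with at least 2 CCAAT matches was found in 9 of the 17 and in 13.3% of all genes. CACGTG was in 4 of the 17 and in 8.09% of all genes. The sterol element TCACNCCAC was in 1 of the 17, Hmgcs1, and in 1.44% of all genes. The 3 motifs do not overlap in these windows, and a match describes letters only.

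Over the 25 tested genes of cholesterol synthesis and its control, the 3 above passed and no member passed as higher, where 0.0999% of all tested genes passed as lower. At an unadjusted p below 0.05, 14 of 25 were lower and 0 higher, against 5.23% of all tested genes lower. The median log2 difference over the list was -0.18 (-0.14 in females, -0.20 in males), and 24 of 25 values were below 0, Ebp being the exception at 0.05. Values were spread along the pathway: the kinase Mvk was at -0.27 (limma adjusted p = 0.127), the isomerase Idi1 at -0.29 (0.127), the prenyl synthase Fdps at -0.24 (0.0998) and squalene epoxidase Sqle at -0.23 (0.0945), members named here for their steps. Srebf2, the transcription factor of the pathway, was at -0.20 (limma adjusted p = 0.225).

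Myelin markers lay lower as well. All 23 markers of myelinating oligodendrocytes lay below 0, with a median of -0.33, where 9121 of all 18026 tested genes lay below 0. At an unadjusted p below 0.05, 8 of the markers were lower (5.23% of all tested genes were), and none passed adjustment by limma. Their summed count ran from 80917 to 185146 in HT fluoxetine and from 101137 to 290822 in WT vehicle, and no marker was at 0. Opalin, a myelin membrane protein, had the smallest p of them (log2 -0.66, limma adjusted p = 0.16). The part of myelin content in the sterol values was not tested.

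**Figure D3:**
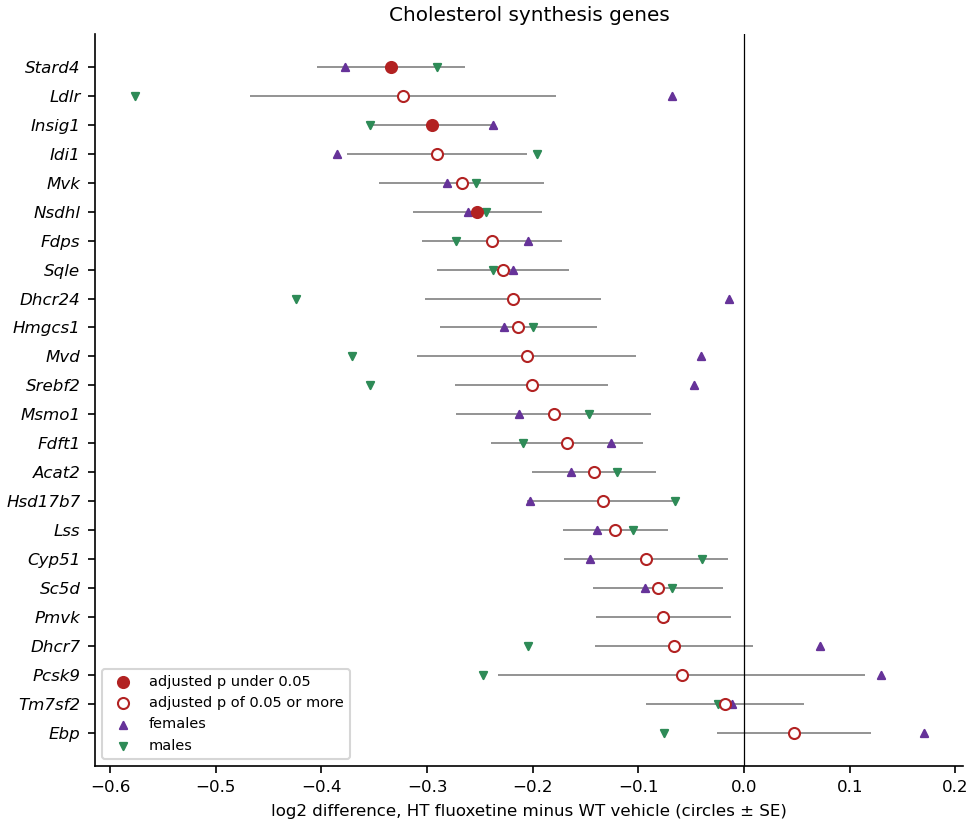
Log2 difference (HT fluoxetine minus WT vehicle, x axis) of 24 of the 25 tested cholesterol genes, with circles ± SE for the sexes averaged and triangles for females and males. Filled circles are Stard4, Insig1 and Nsdhl, which passed at an adjusted p below 0.05, and 23 of the 24 averages drawn lie left of 0.

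The same genes can be set beside the arms that change 1 factor at a time. HT vehicle minus WT vehicle and WT fluoxetine minus WT vehicle use the same WT vehicle mice as the comparison. HT fluoxetine minus HT vehicle uses the same HT fluoxetine mice on which the genes were chosen. It equals the comparison minus the HT vehicle difference, so it is no separate evidence. For Insig1 the log2 difference was -0.13 for HT vehicle and -0.36 for WT fluoxetine, each against WT vehicle, and -0.16 for HT fluoxetine minus HT vehicle. For Stard4 these were -0.05, -0.32 and -0.29, and for Nsdhl 0.03, -0.29 and -0.28. Nsdhl in particular was at 738 ± 89 (SD, n = 5) in HT vehicle females and 732 ± 28 (n = 3) in HT vehicle males, close to WT vehicle, and at 569 ± 68 (n = 5) and 613 ± 60 (n = 5) in WT fluoxetine females and males. Igsf9b was at 0.14 for HT vehicle and 0.36 for WT fluoxetine, and Tnfsf12 at -0.34 and -0.21. Over the 40 higher genes, the medians were 0.09 for HT vehicle and 0.20 for WT fluoxetine. Over the 18 lower genes they were -0.13 and -0.28. The members were chosen on WT vehicle values, so both medians lean in the direction of the choice.

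No gene passed for the interaction of fluoxetine with genotype (limma, 0 of 18026, with 634 or 3.52% at an unadjusted p below 0.05; edgeR on recovered reads also gave 0). Of the arms that change 1 factor, WT fluoxetine against WT vehicle had 933 genes that passed by limma (5.18% of those tested; 575 higher and 358 lower), with 3541 (19.6%) at an unadjusted p below 0.05. By the same test 0 passed for HT vehicle against WT vehicle, for HT fluoxetine against HT vehicle and for HT fluoxetine against WT fluoxetine, where 1119 (6.21%), 1307 (7.25%) and 2023 (11.2%) had unadjusted p-values below 0.05. The HT vehicle arm held 8 mice and the others 10. Tissue content varied in these arms too. The olfactory level, relative to all libraries, was 4.06, 2.74 and 4.41 in WT fluoxetine females 1, 2 and 4. It was 0.13 and 0.08 in females 3 and 5, and 0.08 to 1.68 in the males. Over the compared libraries it was at most 2.61. In HT vehicle female 1 it was 2.61, and the summed choroid plexus count was 79177, against 6186 to 7154 over the compared libraries. The part of tissue content in these counts was not tested. That no interaction passed does not show that the drug acted alike in both genotypes.

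Other lower genes carried larger differences on lower counts. Gkn3, a gastrokine gene known in brain as an arterial endothelial marker, had the largest fall, -0.93 ± 0.20 on the log2 scale (limma adjusted p = 0.0196), and lay mostly in males, described below. Hopx, a homeodomain protein without DNA binding, fell by 0.48 (SE 0.10, adjusted p = 0.0196), with 406 to 838 against 719 to 1172 and 8 of 10 treated mutants below every untreated wild type. Rnaset2a, a lysosomal ribonuclease, fell by 0.48 (SE 0.10, adjusted p = 0.0196), and its near-identical copy Rnaset2b makes its count uncertain. AW047730, a non-coding transcript, fell by 0.39 (SE 0.07, adjusted p = 0.0139), with 355 to 429 against 378 to 645. It runs opposite AI849053 on the other strand. Lmo2, a LIM-domain cofactor of blood and endothelial transcription, fell by 0.31 (SE 0.06, adjusted p = 0.0152), or by 0.27 with an adjusted p of 0.0528 without WT vehicle female 3. Nkd1, a feedback inhibitor of Wnt signalling, and Rhobtb1 fell by 0.32 and 0.31. All of these p-values are from limma.

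Length went with direction. The longest annotated transcript had a median length of 5885 nt among the 40 higher genes and 2518 nt among the 18 lower genes, against 3166 nt over all tested genes with a length. In the tenth of genes with the longest transcripts (median 8096 nt) the median log2 difference was 0.06 and 16 genes passed as higher and 0 as lower. In the tenth with the shortest (median 906 nt) the median was -0.07, and 0 passed as higher and 2 as lower. The slope of a library's log2 values on transcript length was 0.002 ± 0.019 per doubling in HT fluoxetine females and 0.011 ± 0.033 in males, against -0.038 ± 0.037 and -0.033 ± 0.019 in WT vehicle (SD, n = 5 each). With the GC and length trend of each library removed, 51 genes passed, 27 of them among the 58. Of the genes above that passed, Cbl, Klhl3, Tnfsf12, Nsdhl, Slc5a3, Mlxip, Zhx3, Nol4l, Hopx, Abcg1 and Pml were not among those 27. The others were. The differences of these 58-set genes outside the 27 kept their sign after the correction: Tnfsf12 was at -0.39, Hopx at -0.40, Slc5a3 at 0.32, Nsdhl at -0.21, Nol4l at 0.20, Klhl3 at 0.19, Cbl at 0.14, Zhx3 at 0.13 and Mlxip at 0.12. Abcg1 and Pml were each at 0.19 with the sexes averaged. With the olfactory covariate added, Hopx (limma adjusted p = 0.0408), Slc5a3 (0.0209), Nsdhl (0.0242), Cbl (0.0473) and Pml (0.0486) passed. With only the compared groups in the fit 61 genes passed, 29 of them among the 58. Of the genes above, Zfp366 (limma adjusted p = 0.0637), Slc5a3 (0.063), Rhobtb1 (0.0663), Hopx (0.0579), Nol4l (0.0502), and Dpysl2, Zhx3, Gkn3, Lmo2 and Nkd1 (0.0569 each) did not pass there. Nor did Abcg1 (0.0602) and Pml (0.0673) with the sexes averaged.

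**Figure D4:**
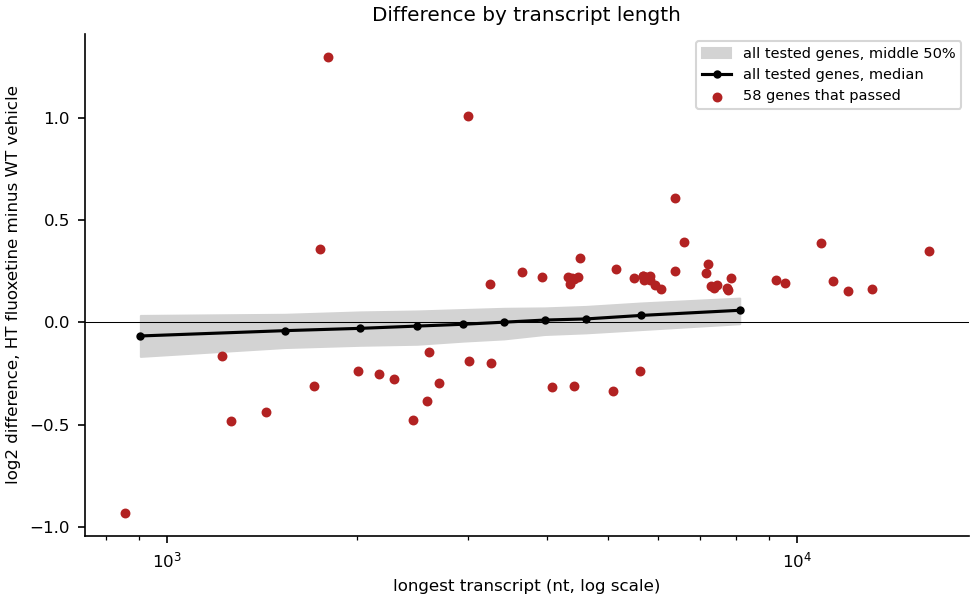
Log2 difference (HT fluoxetine minus WT vehicle, y axis) against the longest annotated transcript of each gene (x axis, log scale). The black line joins the medians of 10 groups of all tested genes by length, rising from -0.07 to 0.06, the grey band holds their middle 50%, and the points are the 58 genes that passed.

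Within females, 25 genes passed (15 higher, 10 lower; 0.139% of those tested), and within males 10 (4 higher, 6 lower; 0.0555%). At an unadjusted p below 0.05 there were 2059 (11.4%) in females and 1596 (8.85%) in males. The 5 treated and 5 untreated mice did not overlap in 3.5% of tested genes in females and 1.81% in males. No gene passed for males minus females (limma, with 1401 or 7.77% at an unadjusted p below 0.05; edgeR also 0), and the smallest adjusted p was 0.0738. The counts within a sex rested on few mice. The female count ran from 3 (without HT fluoxetine female 5) to 40 (without HT fluoxetine female 2), and was 8 without HT fluoxetine female 3, 10 without WT vehicle female 1, and 9 without WT vehicle female 2 or 3. The male count ran from 0 (without HT fluoxetine male 3 or WT vehicle male 4) to 27 (without WT vehicle male 1), and was 4 without HT fluoxetine male 1, 3 without HT fluoxetine male 4, 5 without WT vehicle male 3 and 1 without WT vehicle male 5. With only the compared groups in the fit, 11 passed in females, 2 of them among the 25, and 0 in males.

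In females, Abcg1, which exports cholesterol from cells, had 1625, 1323, 1386, 1260 and 1727 normalised counts in HT fluoxetine and 958, 1044, 1239, 1084 and 1076 in WT vehicle. The females did not overlap. The female log2 difference was 0.43 (limma adjusted p = 0.002), while males, at 1331, 1267, 1401, 1311 and 1212 against 1298, 1323, 1307, 1208 and 1277, had a difference of 0.02. Pml, the organiser of nuclear bodies, had 383, 400, 329, 377 and 402 against 291, 275, 280, 280 and 282 in females, a log2 difference of 0.42 (limma adjusted p = 0.0016), with no overlap. Selenof, a selenoprotein of the endoplasmic reticulum, went the other way.

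Selenof had 3559, 3434, 3298, 3405 and 2821 in HT fluoxetine females and 4293, 4360, 4315, 3991 and 3913 in WT vehicle females, a log2 difference of -0.34 (limma adjusted p = 0.0016). WT vehicle males had 3348, 3400, 3254, 3237 and 3330, so the WT vehicle females stood above every other compared library and the treated females lay near the males of both groups. The male difference was 0.07, and that for males minus females had an unadjusted p of 4.1e-06. HT vehicle females were at 4210 ± 312 (SD, n = 5) and WT fluoxetine females at 3132 ± 222 (n = 5). The lysosomal genes Gaa, acid alpha-glucosidase, and Spns1, a lysophospholipid transporter, were higher in females by 0.54 and 0.34 (limma adjusted p = 0.014 for each). Without HT fluoxetine female 5 their adjusted p-values were 0.121 and 0.102. With only the compared groups in the fit, Gaa passed in females (adjusted p = 0.0257), while Spns1 (0.0661), Selenof (0.0666), Abcg1 (0.0924) and Pml (0.061) did not.

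Red cell transcripts were low in treated mutant females. Hbb-bs, an adult beta-globin gene, had 2435, 2080, 1579, 1860 and 1939 in HT fluoxetine females and 3954, 4260, 4688, 3614 and 4868 in WT vehicle females. In males it had 4489, 2817, 5327, 3768 and 4374 against 3040, 3854, 4477, 4102 and 3647. The females did not overlap and the males overlapped fully. The female log2 difference was -1.12 with a limma adjusted p of 0.062 in the fit of all groups, and of 0.00069 when only the compared groups were fitted. For Hbb-bt the female difference was -1.24 (0.062 and 0.00591), and for Alas2, which starts haem synthesis in red cells and is named here after its values were seen, also -1.24 (0.062 and 0.00905). All 5 haemoglobin and red cell genes had no overlap in females, where 1.39% of tested genes were lower with no overlap. Their median difference was -1.12 in females and 0.07 in males, and the difference between the sexes had unadjusted p-values of 0.0035 for Hbb-bs and 0.0024 for Alas2. HT vehicle females had 4528 ± 1548 Hbb-bs counts (SD, n = 5) and WT fluoxetine females 2819 ± 1539 (n = 5). Blood left in the tissue and transcription in red cells cannot be told apart here.

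**Figure D5:**
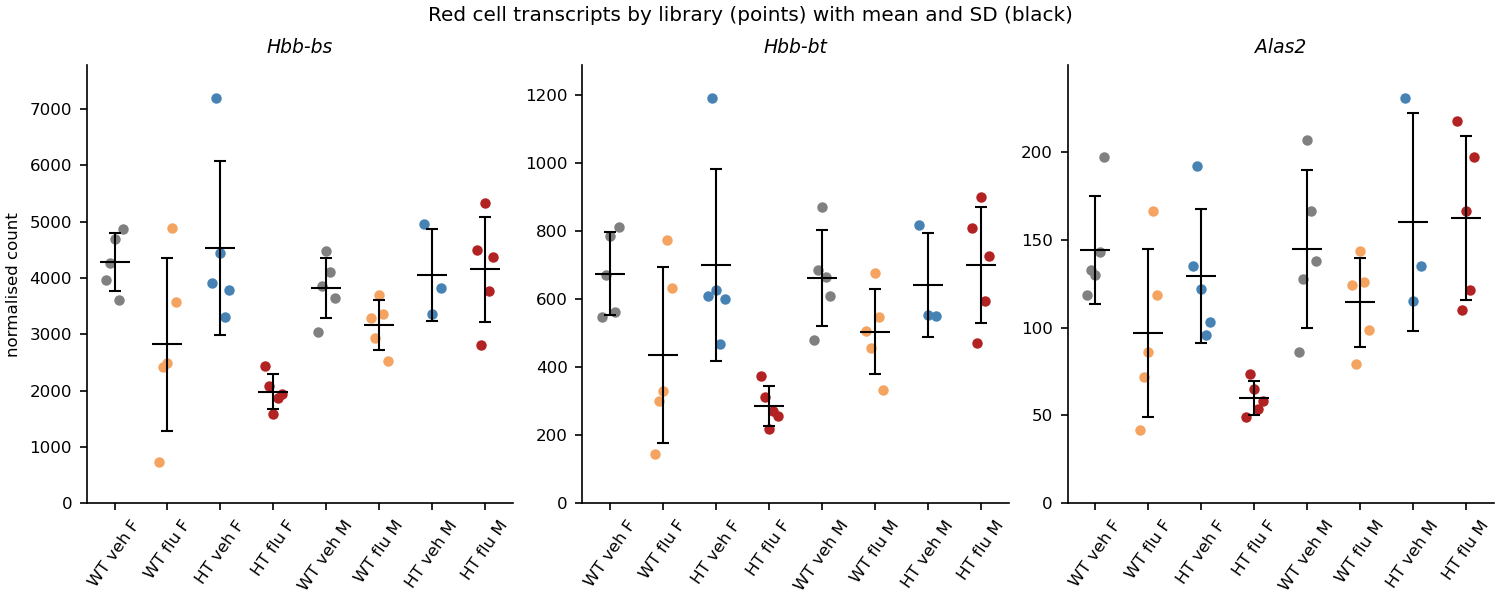
Normalised counts (y axis, from 0) of Hbb-bs, Hbb-bt and Alas2 in each library of 8 groups (F, female; M, male), with the mean and SD in black; n = 5 except HT vehicle males (n = 3). HT fluoxetine females sit below all WT vehicle females for each gene, and WT fluoxetine females spread widely.

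In males, Gkn3 had 17.1, 46.1, 16.6, 41.3 and 16.2 normalised counts in HT fluoxetine and 45.8, 99.6, 60.0, 92.2 and 102.8 in WT vehicle, with an overlap at 46. The male log2 difference was -1.60 (limma adjusted p = 0.0089), and the female one was -0.27. Zfp189, a zinc-finger transcription factor, had 448, 323, 339, 392 and 311 in treated males and 174, 189, 167, 151 and 228 in untreated wild-type males, with no overlap. It rose 1.99-fold in males (log2 0.99, limma adjusted p = 0.013) and was at -0.29 in females, where the groups also did not overlap, with an unadjusted p of 1.1e-05 for the difference between the sexes. HT vehicle males had 382 ± 93 Zfp189 counts (SD, n = 3) and WT fluoxetine males 412 ± 59 (n = 5).

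Aldh2, the mitochondrial aldehyde dehydrogenase, had 1090, 1661, 1326, 1458 and 1399 in treated mutant males and 1742, 1958, 1818, 2004 and 1911 in WT vehicle males, with no overlap and a log2 difference of -0.46 (limma adjusted p = 0.013). Ccdc6 rose by 0.32 in males (adjusted p = 0.0089), and Rara, the retinoic acid receptor alpha, by 0.68 (0.042). Tob1, an antiproliferative protein, fell by 0.45 (0.026) and Plekho2 by 0.62 (0.037), also by limma. None of these male calls held with only the compared groups in the fit, where Aldh2 had an adjusted p of 0.316 and Zfp189 of 0.072.

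No member of 5 lists of synaptic and channel genes passed. Among 32 postsynaptic scaffold genes 0 passed by limma, 6 were higher at an unadjusted p below 0.05 (6.8% of all tested genes were), and the median was 0.08. The adhesion molecule Nlgn3 (log2 0.21, limma adjusted p = 0.0648) and the spine protein Synpo (0.24, adjusted p = 0.175) had the smallest p-values. Of 30 glutamate receptor genes 5, of 16 GABA receptor genes 0, of 31 release machinery genes 4 and of 45 voltage-gated channel genes 4 were higher at an unadjusted p below 0.05, none of them after adjustment. At that level 2 voltage-gated channel genes were lower, and 0 genes of the other 4 lists (5.23% of all tested genes were). Of 53 autism risk genes 12 were higher and 0 lower at that level, with a median of 0.06. Medians in females and males were 0.13 and 0.02 for scaffold genes, 0.11 and 0.01 for release machinery and 0.13 and 0.004 for voltage-gated channels. They were 0.05 and 0.001 for glutamate receptors and -0.0004 and 0.07 for GABA receptors. The list values in this paragraph are not corrected for transcript length. The part of the length trend given above in them was not tested.

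The serotonin system, the target of the drug, held 16 tested genes, of which 0 passed. Htr1b, a receptor that restrains transmitter release, had 341, 324, 400, 325 and 406 normalised counts in HT fluoxetine females and 266, 393, 353, 393 and 335 in males. WT vehicle had 288, 280, 297, 300 and 294 in females and 233, 294, 282, 216 and 261 in males. In 9 of 10 treated mutants Htr1b was above every untreated wild type, yet it did not pass in the fit of all groups (log2 0.36 ± 0.12, limma adjusted p = 0.182). It passed with only the compared groups in the fit (adjusted p = 0.035) and with array weights (0.00506). It passed with 0 of the 20 libraries left out in turn (limma adjusted p 0.125 to 0.311). It stood at 0.33 in HT vehicle and 0.08 in WT fluoxetine, each against WT vehicle. Maoa, which degrades serotonin, was at -0.11 (adjusted p = 0.382).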

How the data were processed

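Stranded mRNA libraries of mouse prefrontal cortex were compared. The deposited table holds a normalised signal per gene, counts divided by size factors by the authors, for 18088 genes; per the submitters' processing notes Salmon 0.11.2, R 3.6.0, DESeq2 1.19.11 and the GRCm38 build were used, and roles are not given in the sources used here. The deposited values came back as whole reads for 100% of values (tolerance 1e-06). Of 59 columns, 3 matched no sample and were not used. Genes at 10 or more in at least 3 libraries were tested by limma 3.58.1 in R 4.3.3 with a variance trend on log2(value + 1), in 1 fit of 12 groups, with sexes weighted equally. A fold change on this scale understates low genes. Symbols and positions came from GENCODE on GRCm38 (18077 of 18088 genes matched).

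The members and lists were chosen with earlier results of these data known. Genes were named by a rule: the 10 largest rises and falls, the 8 smallest p-values on each side, up to 5 per side within a sex, and up to 4 passing (otherwise 2) members per list, leaving out predicted genes. Some genes it picks are not given. Named outside the rule were Tjp1 for its lack of overlap, Fos, Hspa5, Alas2 and the cholesterol genes that did not pass. The alternatives were no trend, TMM, no filter, a pseudocount of 5, a fit of just the compared groups, the replicate block, array weights, the olfactory level as a covariate, GC and length correction and leaving out each library. Chosen after seeing the data were edgeR 4.0.16 on the recovered reads, the GC, length and olfactory corrections together, and leaving out the 3 compared libraries with an olfactory level over 2 (the mean of 5 markers, each relative to its mean over all libraries). Within groups, 105 replicate pairs all differed by more than sampling noise (lowest chi-square per degree of freedom 4.706). The limma script was also run on simulated counts, drawn independently with dispersions from these data. The simulated counts held no shared variation in tissue content and no length trend. A member of the cholesterol list is counted in it but not reported by itself.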

Additional observations from a re-analysis of the deposited data

Results flagged for a closer look

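Values far from the other 4 mice of their group were looked for in 204 sets of 5 (the genes given above and 4 library measures in each compared group), and 9 were found. Chance alone flags about 5% of such sets. Library depth stood out in HT fluoxetine female 5 (35916099 reads, next 28331063), and olfactory marker level in HT fluoxetine male 5 (2.61 times the mean over all libraries, next 0.438). Among genes, Dpysl2 was low in HT fluoxetine male 5 (3311 normalised counts, next 4144) and Slc5a3 low in HT fluoxetine female 2 (682, next 920). Zhx3 was high in WT vehicle male 1 (1862, next 1606). Lmo2 was high in WT vehicle female 3 (468, next 381), and AW047730 and Spns1 were low in WT vehicle female 4 (378, next 494, and 1033, next 1222). Plekho2 was high in WT vehicle female 5 (475, next 381).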

How the results depend on the processing

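The direction of all 58 genes held under each of the 12 other settings and with each library left out. With the sexes averaged, 58 genes passed without the trend, 55 with TMM, 58 without a filter, 58 with a pseudocount of 5, 61 with the compared groups only (29 of the 58 among them), 51 after GC and length correction (27), 63 with edgeR (57) and 61 without the 3 most olfactory libraries (40). More passed with array weights (1001), with the olfactory covariate (266) and with GC, length and olfactory corrections together (199, 39 of the 58). Leaving out a library gave 15 to 77. In females 25 became 11 (compared groups only), 496 (array weights), 159 (olfactory covariate), 12 (GC and length) and 8 (without the 3 most olfactory libraries), and 3 to 40 with a library left out. In males 10 became 0 (compared groups only), 225 (array weights), 205 (olfactory covariate), 88 (GC, length and olfactory) and 18 (without the 3 libraries), and 0 to 27 with a library left out. For males minus females 0 became 2 (compared groups only), 18 (array weights) and 2 (olfactory covariate), and 0 to 2 with a library left out. The cause of these changes was not tested. The interaction stayed at 0 in each setting. Shank3 changed sign with the olfactory covariate (-0.00045) and with GC, length and olfactory corrections together (-0.020), with adjusted p-values of 0.998 and 0.911.

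The replicate number as a block gave 47 genes, 45 of them among the 58. The labels do not say that the numbers pair mice. Same-numbered mice of the compared groups had correlations of deviations from -0.251 to 0.445 over 10 pairs, 6 of them over 0.1. Of these mice, 2 correlated best with their own number. So few pairs cannot show whether a number marks a shared batch or litter. The depth of at least 24560951 reads per library leaves genes under 10 normalised counts untested.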

Other observations

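Genes of the endoplasmic reticulum stress response lay higher in HT fluoxetine. Of 21 tested, 12 were higher and 0 lower at an unadjusted p below 0.05 (6.8% of all tested genes were higher), with a median log2 difference of 0.13, and 0 passed adjustment by limma. The chaperone Hyou1 (0.23 ± 0.06 SE, limma adjusted p = 0.0563) and the ubiquitin ligase Syvn1 (0.18 ± 0.05, 0.0568) had the smallest p-values, and Hspa5, the main chaperone of the compartment, was at 0.32 (0.0651). Hyou1 passed with only the compared groups in the fit (adjusted p = 0.035), with the replicate block (0.0497), array weights (0.000562), the olfactory covariate (0.0436) and edgeR (0.0498), and with 4 of the 20 libraries left out in turn. Against WT vehicle, Hspa5 was at 0.11 in HT vehicle and 0.34 in WT fluoxetine. Ribosomal protein genes lay lower: of 81, 28 were lower at an unadjusted p below 0.05 and 77 were below 0, with a median of -0.09, and 0 passed (5.23% of all tested genes were lower at that level). These are short transcripts, and the length trend given above runs the same way; its part in these values was not tested.

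Immediate early genes, induced by neuronal activity, had a median of -0.33 over 28 genes, with 9 lower and 0 higher at an unadjusted p below 0.05 and 0 passing (5.23% of all tested genes were lower and 6.8% higher at that level). Fos was at -0.73 (limma adjusted p = 0.217) and Btg2 at -0.64 (0.111). Btg2 passed with array weights (0.0215), the olfactory covariate (0.0487) and edgeR (0.0358), without the 3 most olfactory compared libraries (0.00733) and without WT vehicle male 1 (0.00761). It passed with only 1 of the 20 libraries left out in turn (limma adjusted p 0.00761 to 0.235). With only the compared groups in the fit Btg2 did not pass (0.154). Against the same WT vehicle mice, Fos was at -0.65 in HT vehicle and -0.08 in WT fluoxetine. Of 19 glucocorticoid-responsive genes, 4 were higher and 1 lower at an unadjusted p below 0.05 (6.8% and 5.23% of all tested genes were). None passed adjustment by limma, and 6 of the 19 lay below 0. The list median was 0.11 (0.007 in females, 0.19 in males). Zbtb16, with the smallest p of them, was at 0.32 (limma adjusted p = 0.0701), 0.29 in HT vehicle and 0.29 in WT fluoxetine. Its adjusted p was 0.0131 once the 3 libraries highest in olfactory markers were left out, 0.0106 under array weights, 0.0368 without WT vehicle female 1 and 0.0114 without WT vehicle male 1. Zbtb16 passed with only 2 of the 20 libraries left out in turn (limma adjusted p 0.0114 to 0.176). With only the compared groups in the fit it did not pass (0.106).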
